A study of Mus musculus with 16 samples.

Results

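The cytosolic ribosome is built from ribosomal RNA and the products of a large set of genes, named Rpl for the large subunit and Rps for the small one. The 92 genes described here are all protein-coding genes of GENCODE release M21 with a symbol of that form, and they were taken from 51060 genes with a quantified transcript. Of these, 57 carry large-subunit names and 35 small-subunit names, and the symbols also take in paralogs, intronless copies that the annotation calls protein-coding, and *Rps19bp1*, which encodes a partner of RPS19 and not a ribosomal protein. The genes were followed in brown adipose tissue (BAT) of OPA1 BKO mice, which are Opa1 fl/fl and carry Ucp1-Cre so that thermogenic adipocytes lose the gene, and of WT littermates with floxed alleles and no Cre. There were 4 females and 4 males of each genotype, all 7 weeks old, fed regular chow and housed at room temperature. Ucp1-Cre acts in cells that express *Ucp1*, so the other cells of the tissue keep an intact *Opa1*, and in whole tissue fewer cells of a type and less RNA per cell cannot be told apart.

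Ribosomal protein mRNAs are among the most abundant of a cell. Their translation is controlled together through a run of pyrimidines at the 5′ end, the terminal oligopyrimidine (TOP) tract, by which the growth kinase mTORC1 and the LARP1 protein regulate how many of them are read. Many of these genes have also been copied back into the genome as processed pseudogenes, which have no introns and can be nearly identical to the mRNA.

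Total estimated counts per mouse were between 13607283 and 23114534. *Opa1*, the targeted gene, had 184 ± 18.3 CPM (counts scaled to a common library size by the TMM method) in WT BAT against 26.1 ± 7.32 CPM in OPA1 BKO BAT (SD over 8 mice each). Transcripts of the mitochondrial genome made up 26.7% ± 2.42 of the counts in WT and 6.76% ± 1.55 in OPA1 BKO BAT (SD, n = 8 each), and TMM scaling is meant to correct for such a shift. Summed skeletal muscle markers ranged from 17.3 to 5930 CPM in WT BAT and from 2.07 to 14200 CPM in OPA1 BKO BAT, with 3 mice above 5000 CPM. Of these 7 markers, 0 were called at an adjusted p-value under 0.05 in edgeR. Macrophage markers were between 68.2 and 99.3 CPM in WT BAT and between 99.4 and 424 CPM in OPA1 BKO BAT. All 5 of 5 were called higher, beside 20.8% of all genes tested. The brown adipocyte markers ranged from 14200 to 21500 CPM in WT BAT and from 8220 to 13500 CPM in OPA1 BKO BAT. Of these 6, 3 were called lower and 0 higher, beside 20.2% of all genes called lower. The part of these cell types in the ribosomal protein values was not tested.

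As a group the ribosomal protein genes had a median change close to 0. Of the 92 genes, 88 passed the filter on low counts, and their median log2 fold change of OPA1 BKO over WT was 1.5e-05, beside 0.01 over the 15632 genes tested. The 8 members that were higher and the 11 that were lower at an adjusted p-value under 0.05 (quasi-likelihood test of edgeR, adjusted for sex, with Benjamini-Hochberg adjustment over all genes tested) made up 21.6% of the members tested. Over all genes, 41.0% were called, 20.8% higher and 20.2% lower. Changes were also small in size. The log2 fold change lay within 0.5 of 0 for 85 of the 88 members, or 96.6%, where 72.8% of all genes tested did, and its SD across genes was 0.241 in the members and 0.652 in all genes. Most members are abundant, so the same counts are given for abundant genes: at 50 CPM or more on average, 16 of 78 members were called (20.5%) against 1604 of 3098 genes (51.8%). The large subunit had 7 higher and 5 lower of 53 tested, with a median of 0.01, and the small subunit had 1 higher and 6 lower of 35, with a median of -0.02.

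These splits hold for TMM scaling with the filter on low counts and the methods close to it. With TMM and no filter, 9 members were higher and 5 lower of 89, with a median of 0.05. Over the 31074 genes of that fit, 3429 were higher and 2412 lower, with a median of 0.03. With library size alone, 77 members were called higher and 0 lower, while the median of all genes moved to 0.57 and that of the members to 0.55. With limma on log2(TPM + 0.5), 85 of 87 were called higher and 0 lower, with medians of 0.87 for all genes and 0.94 for the members. On each of these scales the members sat close to the median of all genes, so the directions given here are relative to that median.

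**Figure D1:**
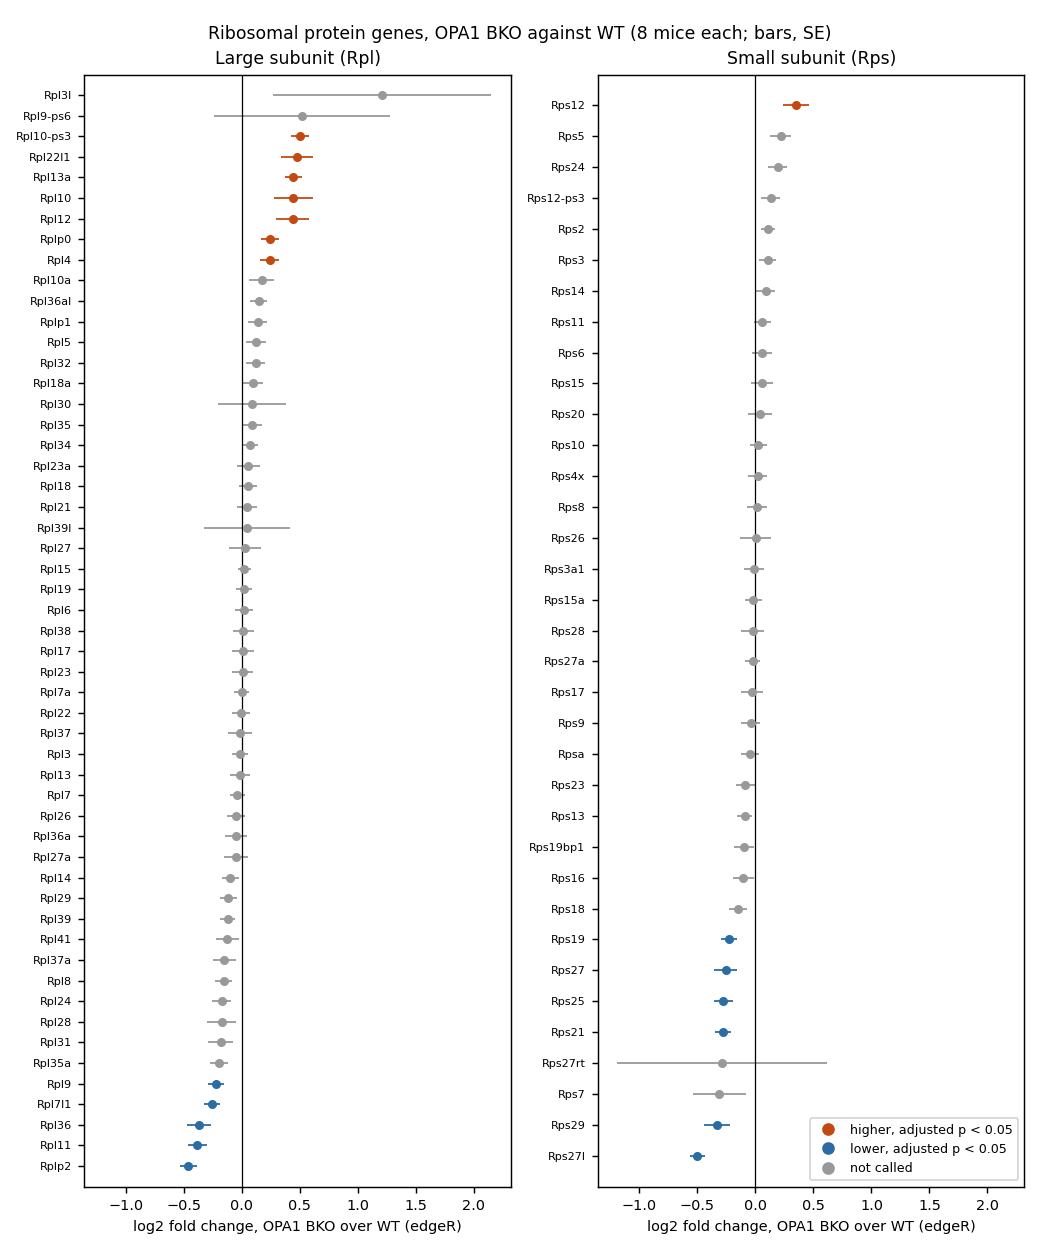
Log2 fold change of OPA1 BKO over WT mice (x axis, edgeR, bars are standard errors, 8 mice a genotype) for the 88 members tested, large subunit on the left and small subunit on the right, coloured by call. Most points lie within 0.5 of 0, and the long bars belong to members at low or uneven counts, among them *Rpl3l*, *Rpl9-ps6* and *Rps27rt*.

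*Rps27l* encodes a paralog of the small-subunit protein RPS27 and is known as a target of p53. It had the largest decrease among called members. Its level was between 75.4 and 105 CPM in WT mice, with a median of 89.7, and between 57.3 and 75.2 CPM in OPA1 BKO BAT, with a median of 58.6. It was the 1 member in which no OPA1 BKO mouse reached a WT mouse, although the gap between the nearest mice was small. Every OPA1 BKO mouse lay below every WT mouse in 4.89% of all genes tested. The log2 fold change was -0.50 (SE 0.0617, adjusted p = 1.22e-05 in edgeR), and it was -0.48 in females (adjusted p = 0.002) and -0.52 in males (adjusted p = 0.000351) in edgeR's model of the 4 groups. No member had every OPA1 BKO mouse above every WT mouse, beside 5.07% of all genes tested.

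*Rps27* itself, the canonical gene, had 114 to 199 CPM in WT (median 158) and 105 to 174 CPM in OPA1 BKO BAT (median 130). The groups overlapped in all but 1 OPA1 BKO mouse. Its log2 fold change of -0.25 (SE 0.0987, adjusted p = 0.0491 in edgeR) was at the edge of the threshold and lost the call when any of 10 of the 16 mice was left out. The paralogs are shown side by side because they are different enough for reads to separate them. The coding sequence of *Rps27* (chr3:90212522-90213651, minus strand, GRCm38) has 252 bases, and *Rps27l* (chr9:66946086-66949516, plus strand) matches it at 76.2% of them. The first 60 bases of both coding sequences follow, with the 18 positions at which they differ in capitals.
Rps27: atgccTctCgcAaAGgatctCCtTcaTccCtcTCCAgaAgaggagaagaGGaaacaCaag
Rps27l: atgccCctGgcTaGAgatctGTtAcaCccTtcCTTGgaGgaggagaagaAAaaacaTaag

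*Rplp2*, which encodes an acidic protein of the stalk that binds elongation factors, fell by 0.46 on the log2 scale (SE 0.0752, adjusted p = 0.000158 in edgeR). Its level ran from 287 to 478 CPM in WT (median 380) and from 240 to 335 CPM in OPA1 BKO BAT (median 274), and 6 of the 8 OPA1 BKO mice were below the lowest WT mouse. *Rplp0*, which forms the base of the stalk, was called higher with a log2 fold change of 0.24 (SE 0.079, adjusted p = 0.0222 in edgeR). *Rpl11* encodes a large-subunit protein that is known for binding MDM2 when ribosome assembly is disturbed. It had 199 to 324 CPM in WT (median 266) and 160 to 243 CPM in OPA1 BKO BAT (median 195), a log2 fold change of -0.38 (SE 0.0817, adjusted p = 0.00147 in edgeR), with 4 of 8 OPA1 BKO mice below all WT mice. *Rpl36*, of the large subunit, and *Rps29*, of the small subunit, complete the 5 largest decreases. *Rpl36* was between 109 and 228 CPM in WT BAT and between 107 and 149 CPM in OPA1 BKO BAT, a log2 fold change of -0.37 (edgeR, adjusted p = 0.0106). *Rps29* was between 192 and 395 CPM in WT BAT and between 179 and 277 CPM in OPA1 BKO BAT, a log2 fold change of -0.33 (edgeR, adjusted p = 0.0286). In both genes the ranges overlapped in all but 1 OPA1 BKO mouse, the highest WT mice were males, and 94.1% of the 31-base words of *Rpl36* also occur in other genes, although 99.5% of the counts stayed on the gene and its log2 fold change with copies was again -0.37. The call of *Rps29* was lost when any of 6 mice was left out. The remaining lower members were *Rps21*, *Rps25*, *Rps19* and *Rpl9*, with log2 fold changes between -0.28 and -0.22, beside *Rps27* and *Rpl7l1*.

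*Rpl13a*, whose protein is also known for a role outside the ribosome in silencing inflammatory mRNAs, was the highest-expressed of the 5 largest increases. It had 229 to 357 CPM in WT (median 280) and 321 to 530 CPM in OPA1 BKO BAT (median 371). The 4 OPA1 BKO males were all above the highest WT mouse, and the 4 OPA1 BKO females lay between 321 CPM and that value. The log2 fold change was 0.45 (SE 0.0703, adjusted p = 0.000118 in edgeR), with 0.41 in females (adjusted p = 0.011) and 0.48 in males (adjusted p = 0.0017).

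*Rpl22l1* encodes a paralog of RPL22, and both proteins are known to bind RNA and to influence splicing. *Rpl22l1* had 14.9 to 21.3 CPM in WT (median 19.3) and 18.5 to 38.7 CPM in OPA1 BKO BAT (median 23.8). Of the 8 OPA1 BKO mice, 6 were above all WT mice. Its log2 fold change was 0.48 (SE 0.138, adjusted p = 0.0109 in edgeR). The canonical *Rpl22* was more abundant and was not called, with 82.9 to 123 CPM in WT, 88.1 to 132 CPM in OPA1 BKO BAT and a log2 fold change of -0.01 (SE 0.0772, adjusted p = 0.953 in edgeR). The difference between the paralogs was not tested.

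**Figure D2:**
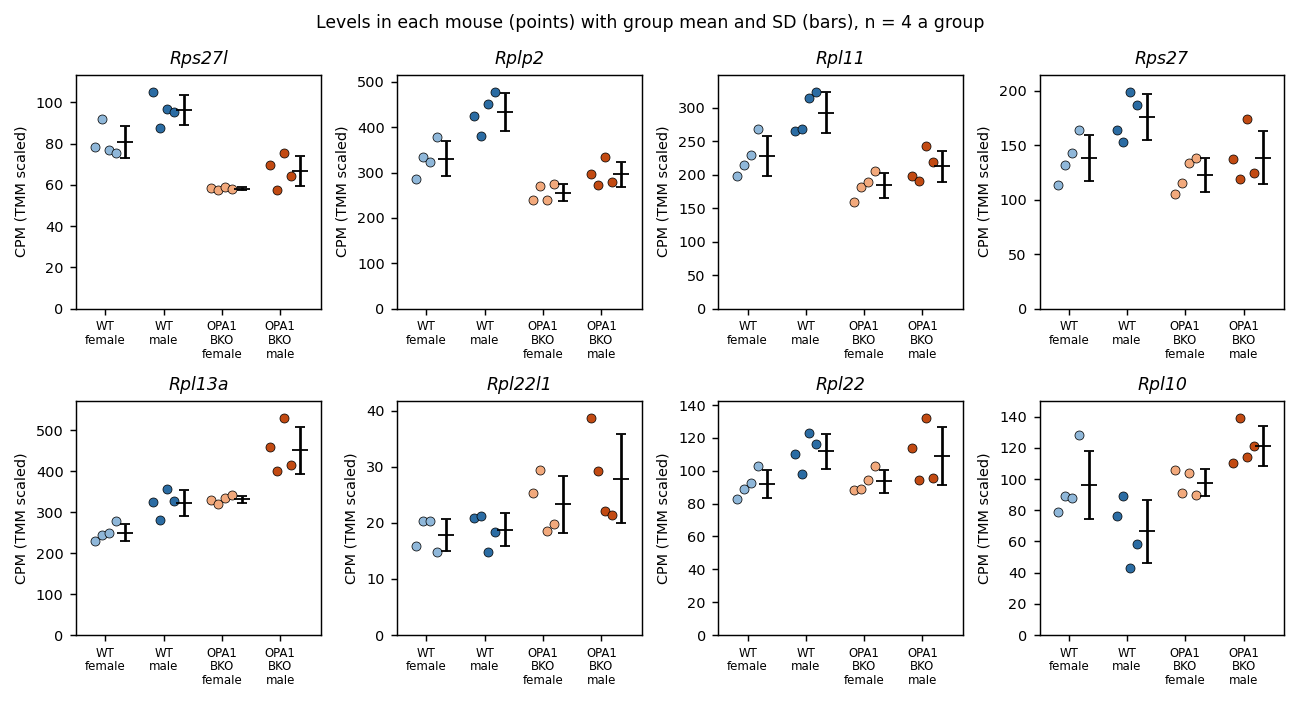
Level of 8 members in each mouse (y axes, TMM-scaled CPM from 0), with group means and SD beside the points (n = 4 a group). *Rps27l* in OPA1 BKO BAT lies at or below 75.2 CPM, *Rpl22l1* was called higher and *Rpl22* was not, and *Rpl10* averages 66.6 CPM in WT males and 121 CPM in OPA1 BKO males.

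The other paralog pairs moved less or were not called. *Rpl7l1*, which encodes a factor of ribosome assembly related to RPL7, fell by 0.26 on the log2 scale (SE 0.0689, adjusted p = 0.00657 in edgeR), from 57.9 to 78.9 CPM in WT to 51.3 to 64.2 CPM in OPA1 BKO BAT, while *Rpl7* had a log2 fold change of -0.04 (adjusted p = 0.673). *Rpl36a* and *Rpl36al*, whose proteins are nearly the same, had log2 fold changes of -0.05 and 0.15 (adjusted p = 0.704 and 0.123 in edgeR). *Rpl39* had 81.9 to 133 CPM in WT BAT and 82.4 to 121 CPM in OPA1 BKO BAT, and *Rpl39l*, known mainly from testis, had 0.965 to 2.90 CPM and 0.569 to 4.59 CPM. Neither was called, with adjusted p-values of 0.138 and 0.939 in edgeR. *Rps4x*, the X-linked small-subunit gene, had a log2 fold change of 0.02 (edgeR, adjusted p = 0.864). *Rpl10l*, a testis paralog of *Rpl10*, had 0 counts in all 16 mice, as did the copies *Rpl9-ps1* and *Rpl36-ps4*, and with *Rpl36a-ps1*, which reached 0.103 CPM in 1 mouse, these are the 4 members that did not pass the filter. A count of 0 allows up to 3 counts of the library total, and this floor covers counting error only.

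*Rpl3l* is the paralog of *Rpl3* that replaces it in the ribosomes of skeletal muscle and heart. It had the largest log2 fold change of all members, 1.21, but with an SE of 0.941 and an adjusted p of 0.324 in edgeR it was not called. Its level ran from 0.34 to 30.5 CPM in WT BAT and from 0.148 to 57.8 CPM in OPA1 BKO BAT. The highest mice were OPA1 BKO male 1 with 57.8 CPM, OPA1 BKO female 2 with 52.9 CPM and WT female 3 with 30.5 CPM. The same mice held the most of the 7 muscle markers summed, at 14200, 11400 and 5930 CPM. The mouse with the least *Rpl3l*, OPA1 BKO female 3 with 0.148 CPM, also had the least of the markers, 2.07 CPM. *Rpl3* stayed between 274 and 338 CPM in WT BAT and between 250 and 379 CPM in OPA1 BKO BAT, with a log2 fold change of -0.02 (edgeR, adjusted p = 0.872). Without the 3 mice above 5000 CPM of muscle markers, which was chosen after seeing the data, 5 members were called higher and 8 lower, and the share called over all genes was 34.2%.

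In WT mice, a gene's level per length was compared by the deposited TPM. *Rps29* had the highest mean, 1030 TPM, followed by *Rpl41*, which encodes the smallest ribosomal protein, with 969 TPM and *Rplp2* with 877 TPM. The lowest among the tested members were *Rpl9-ps6* with 0.422 TPM, *Rpl39l* with 2.70 TPM and *Rps27rt* with 3.30 TPM, and all of these are paralogs or copies. In counts, *Rpl41* was between 283 and 513 CPM in WT BAT and between 282 and 528 CPM in OPA1 BKO BAT, which overlap almost fully (log2 fold change -0.12, adjusted p = 0.348 in edgeR). *Rpl9-ps6* and *Rps27rt* were below 3 CPM in every mouse.

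The share of RNA taken by the members was described per mouse. Of the counts of genes outside the mitochondrial genome, they made up 1.57% to 2.34% in WT (median 1.85%) and 1.80% to 2.89% in OPA1 BKO BAT (median 2.10%). The ranges overlapped, with means of 1.88% ± 0.267 and 2.17% ± 0.373 (SD, n = 8 each). Within females the means were 1.71% ± 0.18 in WT and 1.92% ± 0.126 in OPA1 BKO BAT, and within males 2.05% ± 0.244 and 2.42% ± 0.374 (SD, n = 4 each), so the mean was higher in OPA1 BKO BAT in both sexes while the ranges overlapped in each. No test was made of this share. Of all counts, in which the mitochondrial genome is included, the means were 1.38% and 2.03%, and no OPA1 BKO mouse lay below the highest WT mouse at 1.62%. The share of TPM of genes outside the mitochondrial genome was 4.58% ± 0.367 in WT and 6.26% ± 0.783 in OPA1 BKO BAT (SD, n = 8 each).

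Sex was the other variable in the design. In WT mice, 84 of the 88 members had a higher estimate in males than in females, with a median log2 difference of 0.34, where the median over all genes tested was -0.01. By edgeR's quasi-likelihood test 0 members passed an adjusted p of 0.05, although 63 had an unadjusted p under 0.05, and over all genes 0.23% were called. The smallest adjusted p belonged to *Rpl39*, 0.056. DESeq2 called 25 members, all higher in males, beside 2.5% of all genes called higher. Leaving out WT male 2 gave 21 calls in edgeR, leaving out OPA1 BKO male 3 gave 5 and leaving out WT female 2 gave 2. Short genes in general also had higher estimates in WT males: the median was 0.28 over 866 genes with a mean transcript length under 700 bases and -0.08 over 8964 genes of 2000 bases or more. In the members it was 0.39 under 700 bases, 0.30 from 700 to under 1000 bases and 0.20 at 1000 bases or more, and whether length accounts for the difference was not tested.

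The members varied together from mouse to mouse. After the group means were removed, 2762 of 2926 pairs among 77 members (paralogs, copies and *Rps19bp1* left out) were positively correlated over the 16 mice, with a median r of 0.795, where pairs of all genes had a median of -0.002. These correlations share libraries and scaling and are given as a description. The median deviation of those members from the mean of all mice ranged from -0.33 in WT female 1 to 0.43 in OPA1 BKO male 3. By group the mean deviation was -0.15 ± 0.163 in WT females, -0.16 ± 0.098 in OPA1 BKO females, 0.16 ± 0.108 in WT males and 0.15 ± 0.212 in OPA1 BKO males (SD, n = 4 each).

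**Figure D3:**
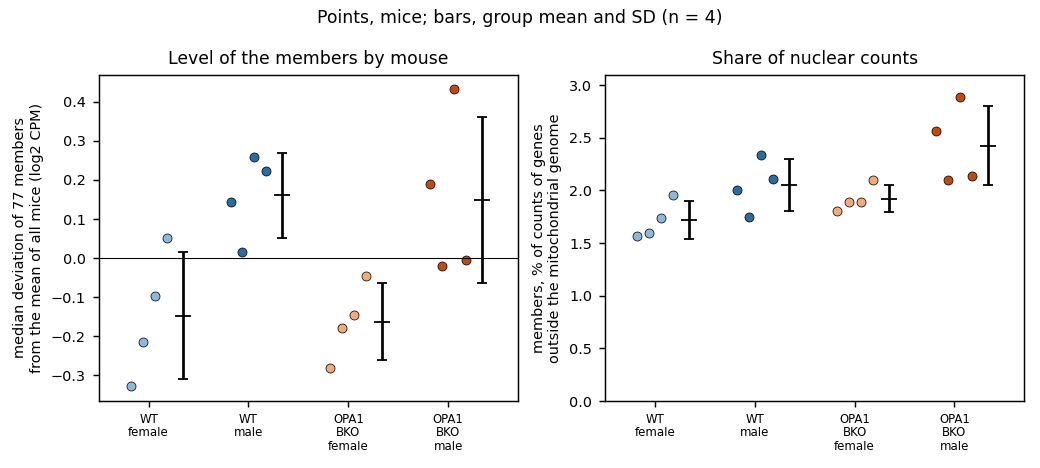
Left, the median deviation of 77 members from the mean of all mice (y axis, log2 CPM) in each mouse, and right, the share of the counts of genes outside the mitochondrial genome that all members take (y axis, percent from 0), with group means and SD (n = 4). Males lie higher than females on average in both genotypes, and OPA1 BKO male 3 has the highest deviation, 0.43, and the highest share, 2.89%.

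Within a sex, fewer members passed the test. In females 2 were higher and 3 lower in OPA1 BKO mice, beside 18% of all genes called, and in males 7 were higher and 8 lower, beside 34.8%. The interaction of genotype and sex, which tests the difference between the sexes itself, called 0 members in edgeR and 0 in DESeq2, beside 0.115% and 2.23% of all genes, and 2 members had an unadjusted p under 0.05 in edgeR. The smallest p belonged to *Rpl10*, an X-linked gene whose protein joins the subunit late in its assembly. *Rpl10* had 95.9 ± 21.7 CPM in WT females, 97.7 ± 8.42 CPM in OPA1 BKO females, 66.6 ± 20.1 CPM in WT males and 121 ± 12.8 CPM in OPA1 BKO males (SD, n = 4 each). In males its log2 fold change was 0.86 and in females 0.03, a difference of 0.83 (adjusted p = 0.194 in edgeR). The next was *Rpl4*, with 0.40 in males and 0.08 in females (adjusted p = 0.378 in edgeR). Over both sexes *Rpl4*, a core protein of the large subunit, rose by 0.24 (SE 0.0823, adjusted p = 0.0279 in edgeR), from 295 to 366 CPM in WT to 328 to 533 CPM in OPA1 BKO BAT, and the call was lost when any of 5 mice was left out.

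*Rpl10* also belongs to the members whose reads were divided with a copy. *Rpl10-ps3* (chr9:50344201-50344968, minus strand, GRCm38) is annotated as protein-coding, has no intron, and matched all 642 coding bases of *Rpl10* (chrX:74270812-74273135, plus strand). Of the counts of both and of other copies, 27.9% were placed on *Rpl10*. *Rpl10-ps3* itself had 159 to 255 CPM in WT (median 198) and 217 to 400 CPM in OPA1 BKO BAT (median 273), a log2 fold change of 0.50 (SE 0.076, adjusted p = 8.66e-05 in edgeR), and 4 of the 8 OPA1 BKO mice were above all WT mice. Since 96.6% of its 31-base words are found elsewhere, it cannot be told apart which locus these reads came from. With the copies added to *Rpl10*, 284 ± 22.8 CPM in WT BAT and 399 ± 74 CPM in OPA1 BKO BAT (SD, n = 8 each) were obtained, with a log2 fold change of 0.47 (SE 0.0756, adjusted p = 0.00013 in edgeR). With the sum, the log2 fold change was 0.29 in females and 0.65 in males, a difference of 0.36 (SE 0.123, adjusted p = 0.217 in edgeR) in place of 0.83 for *Rpl10* alone. This sum was chosen after seeing the data.

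The same division was found in other members, and the start of each shared coding sequence is shown because these letters can be assigned to either locus. *Rps12* (chr10:23785183-23787275, minus strand), a small-subunit protein, and its copy *Rps12-ps3* (chr19:59322290-59322783) were identical over 396 coding bases. *Rpl5* (chr5:107900502-107909005, plus strand), which binds 5S ribosomal RNA together with RPL11, and the transcribed pseudogene *Gm15500* (chr7:114705217-114706235) were identical over 891. *Rpl12* (chr2:32961559-32965345, plus strand), at the base of the stalk, and the transcribed pseudogene *Gm10275* (chr10:29698746-29699380) were identical over 495. *Rpl11* (chr4:136028265-136053428, minus strand) differed from the pseudogene *Gm10288* (chr3:146838811-146839347) at 1 of 534 bases, G86A counted from 1 at the start codon. The windows below are bases 1 to 60 of the coding sequences from GENCODE M21, and bases 56 to 115 for *Rpl11* with the differing base in capitals.
Rps12 and Rps12-ps3: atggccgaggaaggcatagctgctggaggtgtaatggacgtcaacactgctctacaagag
Rpl5 and Gm15500: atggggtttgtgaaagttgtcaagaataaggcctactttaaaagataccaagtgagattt
Rpl12 and Gm10275: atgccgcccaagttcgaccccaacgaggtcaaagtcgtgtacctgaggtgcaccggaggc
Rpl10 and Rpl10-ps3: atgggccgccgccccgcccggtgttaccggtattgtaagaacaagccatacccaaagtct
Rpl11: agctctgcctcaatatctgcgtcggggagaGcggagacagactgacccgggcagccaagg
Gm10288: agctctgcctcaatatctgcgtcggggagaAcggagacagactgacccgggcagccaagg

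Of the counts of *Rpl5* and its copies 4.25% were placed on *Rpl5*, and of the corresponding sums 6.37% on *Rps12*, 8.20% on *Rpl12* and 9.05% on *Rpl27*, whereas 86.1% stayed on *Rpl11*. Of the 85 members with any reads, counting their copies, 59 kept at least 90% on the gene itself. Copies here include every pseudogene assigned by shared words, however few. For *Rpl12* the counts per gene were 8.11 to 13.8 CPM in WT BAT and 11 to 24.9 CPM in OPA1 BKO BAT, a log2 fold change of 0.44 (edgeR, adjusted p = 0.0209). With its copies it had 145 ± 21.2 CPM in WT BAT and 180 ± 46.2 CPM in OPA1 BKO BAT, and the log2 fold change was 0.30 (adjusted p = 0.0237). *Rps12* was called higher on its own, with 10.1 to 18.4 CPM in WT, 14.1 to 29.1 CPM in OPA1 BKO BAT and a log2 fold change of 0.35 (edgeR, adjusted p = 0.018). With copies its log2 fold change was 0.13 (adjusted p = 0.239) and the call was lost. *Rpl11* kept its call at -0.40 (adjusted p = 0.00123 in edgeR). *Rps27* lost its call (log2 fold change -0.20, adjusted p = 0.104 in edgeR), but most counts added to it came from *Mrpl23-ps1*. That locus averaged 31.7 CPM and was assigned through 1 31-base word shared with *Rps27rt*, whose sum was added to *Rps27*. This sum therefore does not describe the copies of *Rps27* alone. With all copies added, among them loci that share few words, 6 members were higher and 10 lower of 84 tested.

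**Figure D4:**
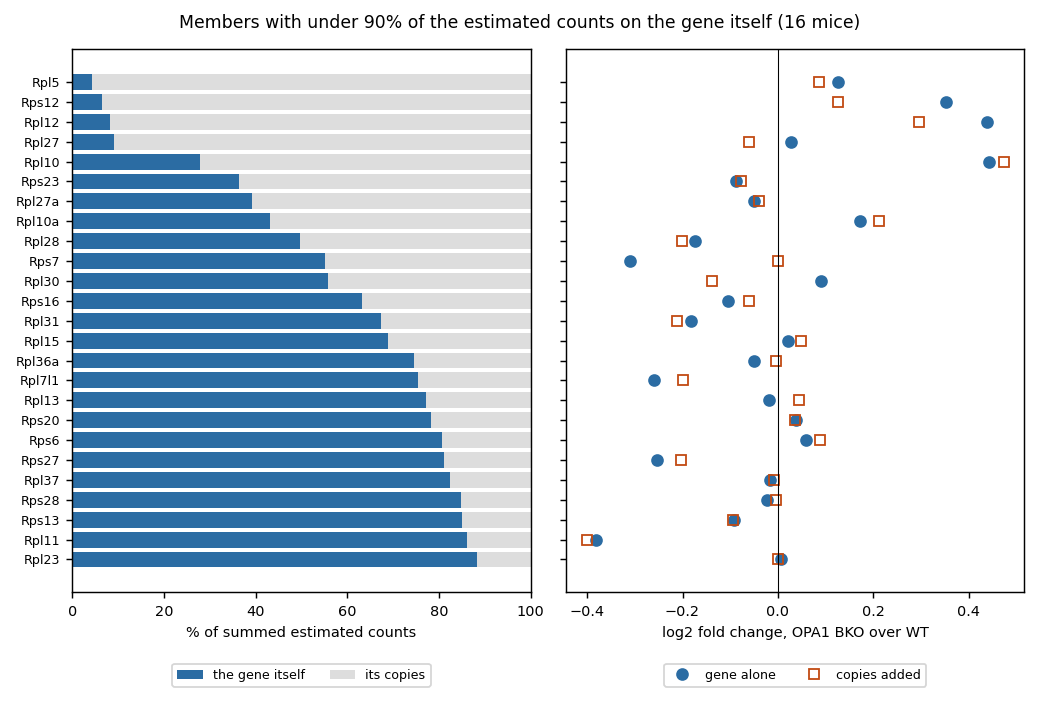
For the 25 members that averaged 10 CPM or more and had under 90% of the summed estimated counts on the gene itself, the left panel shows that percentage (x axis, 16 mice) and the right panel the log2 fold change of OPA1 BKO over WT for the gene alone (filled circles) and with its copies (open squares). *Rpl5*, *Rps12*, *Rpl12* and *Rpl27* kept under 10% of the counts, and adding copies moved *Rps12* from 0.35 to 0.13.

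Isoforms within a gene do not depend on the scaling between mice. For 66 members with at least 10 counts on average for both kinds, the counts of transcripts not annotated as protein-coding (retained introns, nonsense-mediated decay and others) were set against the protein-coding ones. The log2 ratio differed for 4 members (limma, Benjamini-Hochberg adjustment over 5833 genes), or 1 higher and 3 lower, beside 6.75% of all genes tested. *Rps24*, known for tissue-specific splicing of its last exons, had 5.70% to 10% of its counts on such transcripts in WT (median 6.63%) and 8.21% to 13.2% in OPA1 BKO BAT (median 10.9%). The log2 ratio rose by 0.69 (SE 0.152, adjusted p = 0.0174 in limma). Most of it was 1 transcript with a retained intron, *Rps24-204*, at 5.25% ± 1.07 in WT and 8.94% ± 1.54 in OPA1 BKO BAT (SD, n = 8 each). The gene's total was not called, with a log2 fold change of 0.19 (edgeR, adjusted p = 0.0834).

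The share fell in the other called genes, which was also the more frequent direction over all genes: 316 were lower and 78 higher, and the median change was -0.12 over all genes and -0.15 over the members. In *Rpl22l1* it was 18.1% to 28.6% in WT (median 23.2%) and 11.8% to 20.2% in OPA1 BKO BAT (median 16.2%), a log2 ratio change of -0.67 (SE 0.157, adjusted p = 0.0228 in limma), so the gene with more reads had a smaller share of retained-intron and decay transcripts. In *Rpl15* the mean share was 13.6% ± 5.02 in WT and 8.28% ± 1.65 in OPA1 BKO BAT (adjusted p = 0.027 in limma), and in *Rpl28* it was 2.33% ± 0.663 and 1.36% ± 0.266 (adjusted p = 0.0318). The retained-intron transcript *Rpl28-204* averaged 30 counts in WT and 22.1 in OPA1 BKO BAT. Of the counts of each gene and its copies, 68.8% were placed on *Rpl15* and 49.7% on *Rpl28*. How far that division enters these shares was not tested. The next by p-value, *Rpl5*, was not called (log2 ratio change -0.70, adjusted p = 0.112 in limma). Leaving out single mice took the call from *Rpl15* in 4 cases and from *Rpl28* in 6, and from *Rps24* and *Rpl22l1* in none.

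**Figure D5:**
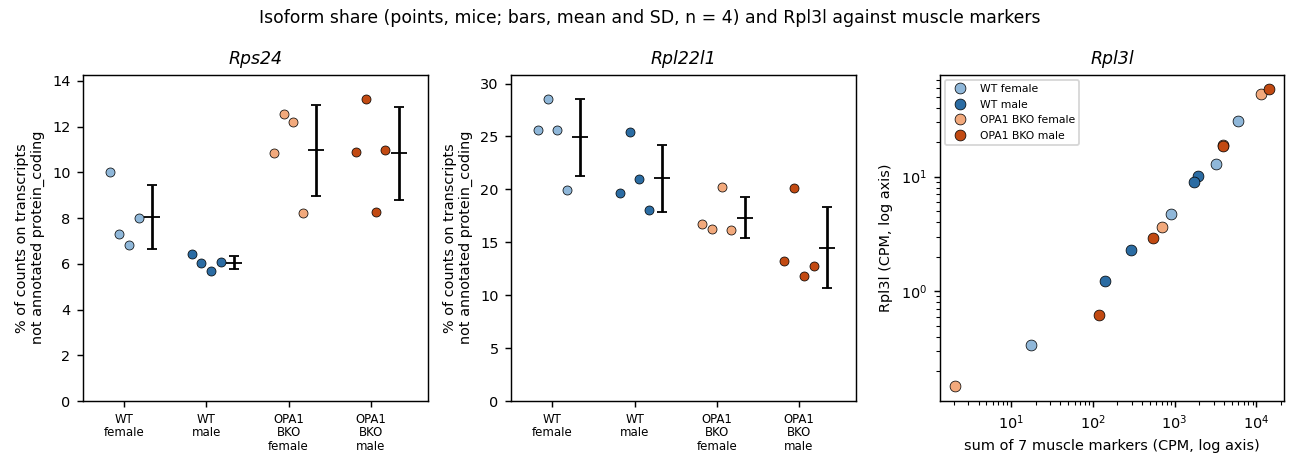
Left and middle, the share of counts on transcripts not annotated as protein-coding (y axes, percent from 0) in each mouse for *Rps24* and *Rpl22l1*, with group means and SD (n = 4), and right, *Rpl3l* against the sum of 7 skeletal muscle markers (both axes log, CPM). *Rps24* is higher and *Rpl22l1* lower in OPA1 BKO BAT with some overlap, and *Rpl3l* rises with the markers in mice of both genotypes.

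The TOP tract was looked for at the annotated starts as a C followed by at least 4 further pyrimidines (C or T) without a break, on the strand of the gene. For RefSeq the C could lie from 3 bases before to 3 bases after any start of the gene. For GENCODE it had to be among the first 3 bases of the transcript, so the shares are not the same measure. The tract was present in 26 of the 66 members in the set of RefSeq starts used (39.4%) and in 13.5% of all 27025 genes in that set. At the start of the main coding transcript in GENCODE it was present in 18 of 88 members (20.5%) and 6.33% of 13659 genes tested. A missing match says only that these letters are not at the annotated start. Of the 18, 3 were called higher and 4 lower, and of the other 70, 5 were higher and 7 lower. Over all genes tested 41.0% were called, 20.8% higher and 20.2% lower. The difference between members with and without the tract was not tested. Starts of members with called changes in both directions are shown to let them be compared, 10 bases before the RefSeq start (GRCm38.p6) and 20 from it, with the tract in capitals. They lie at chr7:45128726-45128755 (minus) for *Rpl13a*, chr3:28805498-28805527 (plus) for *Rpl22l1*, chr7:141447641-141447670 (plus) for *Rplp2* and chr9:66946076-66946105 (plus) for *Rps27l*.
Rpl13a: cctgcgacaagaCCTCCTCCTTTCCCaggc
Rpl22l1: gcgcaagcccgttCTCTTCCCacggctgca
Rplp2: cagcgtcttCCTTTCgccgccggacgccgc
Rps27l: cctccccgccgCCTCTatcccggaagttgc

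The length of the transcript went along with the change. Of the members under 700 bases, 3 were higher and 8 lower of 47, and of those of 1000 bases or more, 3 were higher and 1 lower of 13. Across the 88 members Pearson's r between log2 length and log2 fold change was 0.281 (Spearman's rho 0.242), beside 0.137 across all genes tested. These are descriptions across genes, which share the libraries. Over all 866 genes under 700 bases the median log2 fold change was -0.23, with 67 higher and 280 lower. That of the members of this length was -0.02. Of the 13 members of 1000 bases or more, only *Rpl7l1*, at 2610 bases, reached 2000 bases. Over all 4695 genes from 1000 to under 2000 bases, more were lower (1132) than higher (870), with a median of -0.03. Over all 8964 genes of 2000 bases or more, 2205 were higher and 1399 lower, with a median of 0.06.

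Other genes of the translation machinery were taken from lists written by hand, whose counts stand beside the 20.8% of all genes tested that were higher and the 20.2% that were lower. Among 20 translation factors and other genes with TOP mRNAs, 4 were higher and 2 lower, with a median of 0.03. The elongation factor *Eef1a1*, the most abundant, had a log2 fold change of 0.21 (edgeR, adjusted p = 0.0584), *Eif3a*, the scaffold of the initiation complex eIF3, rose by 0.94 (SE 0.0976, adjusted p = 1.97e-06), and *Eif3f*, another of its subunits, fell by 0.33 (SE 0.0731, adjusted p = 0.00187). Among 20 initiation factors and genes of the mTORC1 branch, 4 were higher and 4 lower, with a median of 0.11. *Eif1*, the most abundant of them, had a log2 fold change of 0.14 (edgeR, adjusted p = 0.161). *Eif1a*, which helps the ribosome to scan for the start codon, rose by 0.75 (SE 0.156, adjusted p = 0.00126 in edgeR) and *Eif4ebp1*, an inhibitor of cap-dependent translation that mTORC1 switches off, fell by 0.82 (SE 0.0967, adjusted p = 7.59e-06).

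Of the 76 genes that make ribosomal RNA and assemble ribosomes, 44 were called higher and 5 lower, and the median was 0.27 on the log2 scale. *Myc*, a transcription factor known to drive ribosome production, rose by 2.64 (SE 0.362, adjusted p = 3.26e-05 in edgeR), the nucleolar protein gene *Ncl* rose by 0.48 (SE 0.0863, adjusted p = 0.000348), and *Nop10*, of the complex that converts uridine in ribosomal RNA to pseudouridine, fell by 0.77 (SE 0.0755, adjusted p = 1.22e-06). Of 18 genes of ribosome rescue and quality control, 4 were higher and 1 lower, with a median of 0.08. *Gtpbp2*, which helps to rescue stalled ribosomes, rose by 1.18 (SE 0.0764, adjusted p = 1e-08 in edgeR) and *Upf1*, the helicase of nonsense-mediated decay, fell by 0.27 (SE 0.0531, adjusted p = 0.000711). The difference between any of these lists and the ribosomal protein genes was not tested.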

How the data were processed

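The authors sequenced polyadenylated RNA of 16 mice with a stranded kit and deposited, per transcript, an estimated count and a TPM from Kallisto 0.45.0 (mm10, per the labels). The deposited estimated counts are not normalized between mice, and a read that fits several transcripts is divided among them, which matters for genes with copies. The transcript set and the strand setting are not given in the sources used here. Of 135308 transcripts, 133284 were joined by identifier to GENCODE M21, and the others held at most 0.73% of the counts. Estimated counts were summed per gene and rounded. Genes passing filterByExpr (4 groups, minimum count 10, minimum total 15) were scaled by TMM. The test was the quasi-likelihood one of edgeR 4.0.16 (R 4.3.3, prior count 0.125), with a term for sex or with 1 mean a group, and Benjamini-Hochberg adjustment. Isoform ratios were tested with limma 3.58.1 after a pseudocount of 0.5. Scripts were tested on simulated data. Pseudogenes were assigned to the member with which they share most 31-base words. No minimum was set, so loci sharing few words were also counted as copies. Examples are *Rps4l*, with 8 words shared with *Rps4x*, and *2610005L07Rik*, with 12 shared with *Rpl23*. Alternatives included DESeq2 1.42.0, limma on TPM, other scalings and filters, and leaving out each mouse. Mice are numbered within a group in the order of the labels, which name no litters or batches, so p-values measure the spread between these mice.

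The text names the 5 largest changes in each direction among called members, the paralog pairs, the 2 smallest p-values of the interaction, the 3 highest and 3 lowest members by TPM, the 5 smallest p-values of the isoform ratio, the members that did not pass the filter, up to 3 genes per list (none for cell type markers) and *Opa1*. *Rps12*, *Rplp0*, *Rps21*, *Rps25*, *Rps19*, *Rpl9*, *Rpl27* and the total of *Rps24* were added after their values were seen, as were the counts with copies and without the mice rich in muscle markers. The members, lists and rules were chosen with earlier results of these data known. The results of 1 further list are not reported here.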

Additional observations from a re-analysis of the deposited data

Results flagged for a closer look

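Among 124 sets of 4 mice checked by Dixon's test, 4 had 1 mouse apart from the rest. Chance gives about 1 in 20, and 4 of 124 is below that rate. The test sets the gap against the range of the 4 values, so a gap can be small in CPM. WT female 1 had 60.8 CPM of *Rpl36al*, and the other 3 had 69.6 to 71.2 CPM. WT male 2 had 124 CPM of *Rpl39*, and the others had 131 to 133 CPM. WT female 3 had 2.19 CPM of *Rps27rt*, and the others had 0 to 0.346 CPM. WT female 4 had 18500 CPM of summed brown adipocyte markers, and the others had 14200 to 14800 CPM.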

How the results depend on the processing

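Scaling mattered most. With library size alone and with limma on log2(TPM + 0.5), 72 and 83 members changed in females and 73 and 84 in males. Limma on log2(TPM + 0.1) was fitted over both sexes together only. With library size alone, limma on log2(TPM + 0.5) and limma on log2(TPM + 0.1), 77, 85 and 85 members were higher and 0, 0 and 0 lower. The median was 0.55, 0.94 and 0.95. In that order the log2 fold changes turned to 0.226, 0.648 and 0.654 for *Eif3f*, 0.171, 0.578 and 0.578 for *Rpl11*, 0.547, 0.888 and 0.889 for *Rpl22*, 0.538, 0.945 and 0.947 for *Rpl3*, 0.181, 0.615 and 0.616 for *Rpl36*, and 0.502, 0.915 and 0.917 for *Rpl36a*. They turned to 0.432, 0.838 and 0.839 for *Rpl39*, 0.428, 0.839 and 0.839 for *Rpl41*, 0.517, 0.924 and 0.925 for *Rpl7*, 0.294, 0.691 and 0.70 for *Rpl7l1*, 0.0923, 0.522 and 0.522 for *Rplp2*, and 0.298, 0.722 and 0.722 for *Rps27*. For *Rps27l* they were 0.0566, 0.465 and 0.466, for *Rps29* 0.222, 0.647 and 0.648, and for *Upf1* 0.283, 0.661 and 0.678. On TPM alone *Eif4ebp1* turned to 0.098 and 0.0982 and *Nop10* to 0.186 and 0.187.

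Without a term for sex 5 members were higher and 8 lower, and without a filter 9 of 89 were higher and 5 lower. DESeq2 called 25 between WT sexes, where 1 was called with copies added. Without the 3 mice rich in muscle markers, 5 were higher and 1 changed in females. The difference in share was 1.67 percentage points in TPM. Leaving out 1 mouse at a time gave 5 to 9 higher (5 without WT male 3), 9 to 15 lower, 4 to 6 in females, 12 to 21 in males, 0 to 0 for the interaction, 0 to 21 between WT sexes, a median of -0.05 to 0.02, a share difference of 0.187 to 0.355 and 2 to 4 isoform ratios (2 without OPA1 BKO male 2, OPA1 BKO female 3 or OPA1 BKO male 4). *Rpl10* lost its call without any of 12 mice. The causes were not tested. Reads shared with copies limit what can be said of single members. No paired analysis was possible because the labels give no replicate numbers or litters.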
